A study of Mus musculus with 6 samples.

Results

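The stromal scaffold of the lymph node was followed through 10 genes expressed by fibroblastic reticular cells, follicular dendritic cells and their relatives: Pdgfra, Pdgfrb, Des, Fmod, Il33, Grem1, Bst1, Mfge8, Coch and Cr2. They were taken by symbol from the deposited table of 50559 genes, which held all 10, and all 10 were among the 14873 genes tested. RNA sequencing covered the inguinal lymph nodes of mice, as 3 samples labelled Control and 3 labelled Naringin. Naringin, a bitter citrus flavanone glycoside, was mixed into the diet for a daily dose of 200 mg/kg. The sources used here give neither strain, age and sex nor how long the mice were fed and what the Control mice ate. The labels do not state whether samples of 1 group came from separate animals, so p-values measure only the spread between these samples, which may be partly technical.

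Fibroblastic reticular cells build the fibre network of the T cell zone and wrap the conduits that carry lymph-borne molecules. Marginal reticular cells line the follicle under the capsule, and follicular dendritic cells hold complement-coated antigen for B cells inside it. Both kinds of PDGF receptor mark cells of this mesenchymal lineage, and lymphotoxin from lymphocytes keeps the follicular cells in place.

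Reads assigned to genes numbered 13074180 to 14976422 per library, so 1 read was worth 0.0668 to 0.0765 CPM (reads per 1000000 assigned reads). Chemokines that define the stroma were present throughout: Ccl21a of the T cell zone lay between 641 and 1219 CPM, Ccl19 between 96.1 and 184 CPM, and Cxcl13 of the follicle between 137 and 383 CPM. Podoplanin (Pdpn), the surface marker of reticular cells, lay between 7.77 and 13.9 CPM. The fat hormone Adipoq reached 4.05 CPM in Control 1 and stood at 0.770 CPM in Naringin 3, and the muscle actin Acta1 had at most 0.401 CPM in any library. The 10 members together summed to 835, 1131 and 1163 CPM in the Control libraries and to 1280, 1232 and 1098 CPM in the Naringin libraries. In this bulk tissue, fewer cells of a type and less RNA per cell cannot be told apart.

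No member passed the adjusted threshold between Naringin and Control. The clearest differences were in Bst1, an ectoenzyme of reticular stroma, at 1.38 times the Control mean with no overlap between the groups, and in Grem1, a BMP antagonist, at 1.73 times the Control mean with overlap. Il33 and Coch had ratios of means of 1.52 and 1.65 and wide spreads, with Naringin 1 highest and Naringin 3 inside or below the Control range. Cr2 had a ratio of 1.21, and Pdgfra, Pdgfrb, Des, Fmod and Mfge8 had ratios of means between 0.902 and 1.14. By limma with Benjamini-Hochberg adjustment over all 14873 genes, 0 of the 10 passed at 0.05, and the background was 0.0% of all genes higher and 0.0% lower. At an unadjusted limma p under 0.05, 2 of 10 were higher and 0 lower, where 0.975% of all genes were higher and 0.457% lower. Those 2 were Bst1 and Grem1, and the count was 0 without Control 1, without Naringin 1 or without Naringin 2, and 1 without Control 3. It was 4 without Naringin 3, where Il33 and Coch joined them. With edgeR and DESeq2 on recovered reads, 0 of the 10 passed adjustment as well.

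**Figure D1:**
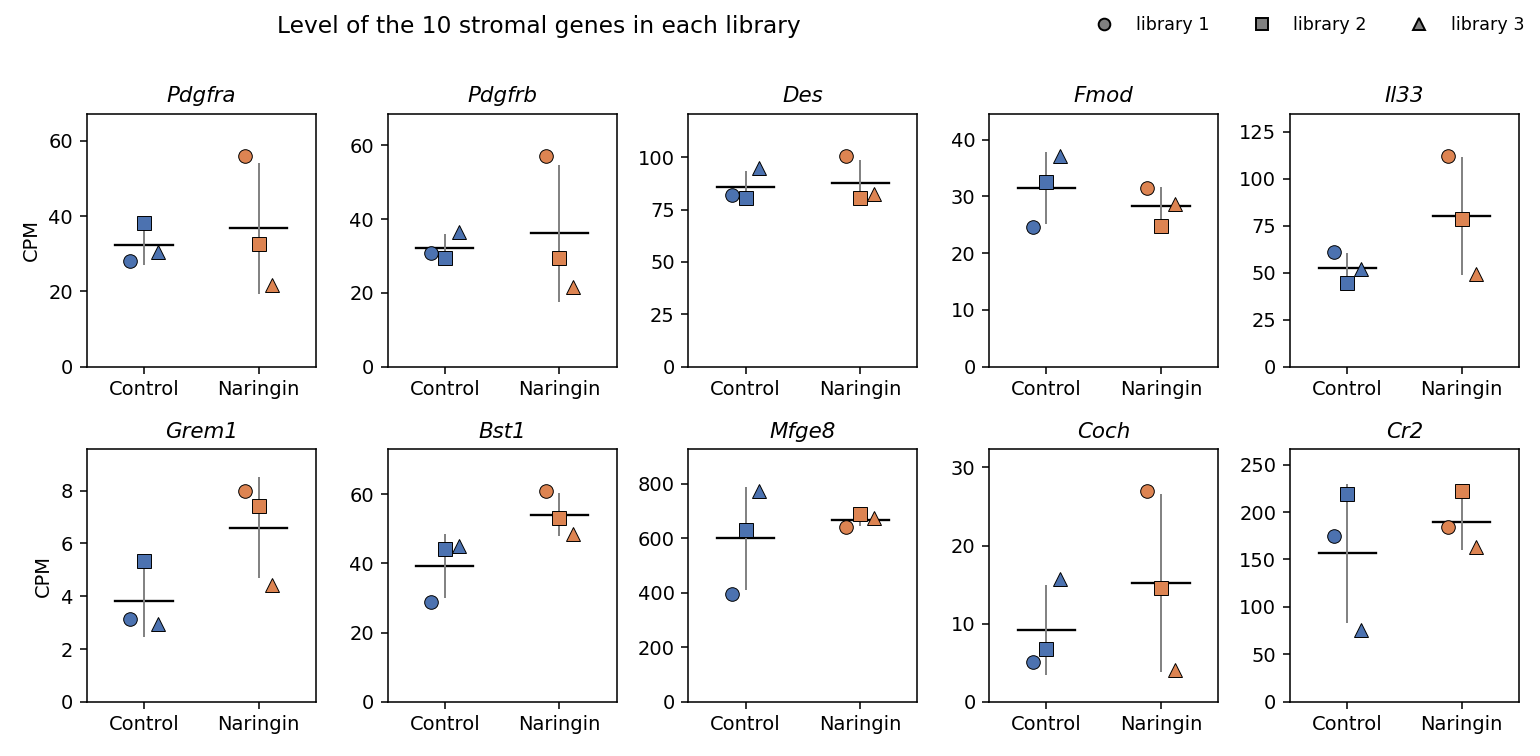
Level in CPM (vertical axes, each starting at 0) of the 10 genes in the 3 Control and 3 Naringin libraries. Points are libraries, horizontal bars are group means and vertical lines are 1 SD each way (n = 3). The Naringin values of Bst1, 48.4 to 60.8 CPM, all lie above the Control values, and Naringin 1 is the highest library in 7 of the 10 panels.

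Levels of different genes were compared per kb of total exon length. Mfge8 stood far above the rest, at 135 ± 27.0 CPM per kb (SD over the 6 libraries), and exceeded the next gene in 6 of 6 libraries. Des at 23.1 ± 2.30, Il33 at 22.9 ± 8.82 and Cr2 at 21.3 ± 6.58 CPM per kb formed a middle group that did not differ beyond its spread: Des exceeded Il33 in 4 libraries and Il33 exceeded Cr2 in 2. Bst1 followed at 14.1 ± 3.23 CPM per kb, then Fmod at 9.05 ± 1.46 and Pdgfrb at 6.24 ± 2.22. Coch at 4.08 ± 2.91 and Pdgfra at 3.44 ± 1.17 CPM per kb could not be ordered, with Coch higher in 3 of 6 libraries. Grem1 was the lowest at 1.25 ± 0.512 CPM per kb and lay below Pdgfra in 6 of 6. Coch varied most between libraries, by 6.52 times from lowest to highest, and Des least, by 1.25 times.

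Pdgfra, the receptor tyrosine kinase for PDGF-A and PDGF-C on fibroblasts, was at 28.1, 38.2 and 30.5 CPM in Control 1, 2 and 3 and at 55.9, 32.5 and 21.8 CPM in Naringin 1, 2 and 3. Pdgfrb, the receptor for PDGF-B and PDGF-D that is also found on pericytes, was at 30.7, 29.3 and 36.6 CPM and at 57.1, 29.6 and 21.7 CPM. In both genes Naringin 1 was the highest and Naringin 3 the lowest of all 6 libraries, so the Naringin values enclosed the Control values. The log2 fold was 0.09 ± 0.30 (SE, n = 3 each; 95% interval -0.60 to 0.79) for Pdgfra and 0.05 ± 0.31 (-0.65 to 0.76) for Pdgfrb. Every fold here is Naringin minus Control on the log2(CPM + 1) scale, which understates the change of low genes. Without Naringin 1 the values were -0.26 and -0.33, and without Naringin 3 they were 0.40 and 0.35. Within a library both genes kept close company: there were 83.2 to 130 Pdgfra reads per 100 Pdgfrb reads in Control and 97.9 to 110 with naringin.

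The groups overlapped in all 4 PDGF ligand genes. All 4 were tested, and 0 had an unadjusted limma p under 0.05, with a median log2 fold of 0.07. Pdgfa averaged 15.9 ± 1.74 CPM over the Control libraries and 14.4 ± 2.15 CPM over the Naringin libraries (SD, n = 3 each), and Pdgfd 1.86 ± 0.142 and 2.29 ± 1.14 CPM. Pdgfb averaged 19.9 ± 2.49 and 21.5 ± 4.95 CPM. Per kb of exon, Pdgfa averaged 4.86 ± 0.626 and Pdgfb 4.97 ± 0.868 CPM per kb (SD over the 6 libraries), between the means of Pdgfra and Pdgfrb. That order did not hold in every library: in Naringin 3, Pdgfrb was at 3.96 CPM per kb, below the lowest Pdgfb value of 4.19. Pdgfc and Pdgfd averaged 1.13 and 0.658 CPM per kb.

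The structural members were the steadiest. Des, the intermediate filament desmin of reticular cells, pericytes and muscle, was at 81.8, 80.5 and 94.8 CPM in Control and 101, 80.6 and 82.5 CPM in Naringin. The groups overlapped, with Naringin 1 highest and Control 2 lowest. Its log2 fold was 0.03 ± 0.14 (95% interval -0.28 to 0.35), and it was -0.012 under upper-quartile scaling and -0.0036 under quantile normalization. Fmod, fibromodulin, a small proteoglycan that binds collagen fibrils, was at 24.6, 32.6 and 37.1 CPM in Control and 31.6, 24.8 and 28.7 CPM in Naringin. It was the one member with a lower mean in Naringin, with a log2 fold of -0.13 ± 0.18 (-0.54 to 0.28). The value was -0.29 without Control 1, in which Fmod was lowest, and -0.0051 without Control 3, in which it was highest.

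Il33, an alarmin cytokine stored in stromal nuclei that acts on regulatory T cells and innate lymphoid cells, was at 61.0, 44.6 and 51.7 CPM in Control and 112, 78.7 and 49.2 CPM in Naringin. Naringin 1 and 2 lay above all Control libraries and Naringin 3 lay within their range. The log2 fold was 0.53 ± 0.27 (95% interval -0.096 to 1.16, unadjusted limma p of 0.0868, limma adjusted p of 0.9996), at 0.25 without Naringin 1 and 0.84 without Naringin 3. Set against Pdgfrb in the same library, Il33 had 198, 152 and 141 reads per 100 Pdgfrb reads in Control and 196, 266 and 226 with naringin, so Naringin 1, the highest in CPM, lay just below Control 1 on this ratio. The receptor genes Il1rl1 (ST2) and Il1rap, both tested, had log2 folds of 0.30 and 0.35 with overlapping groups and no unadjusted p under 0.05.

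Grem1, gremlin 1, a secreted antagonist of BMP2 and BMP4 made by a subset of T zone reticular cells, was the faintest member. Its levels were 3.14, 5.35 and 2.94 CPM in Control, from 41, 74 and 44 reads, and 7.97, 7.41 and 4.41 CPM in Naringin, from 119, 111 and 63 reads. Naringin 3 fell below Control 2, so the groups overlapped. The log2 fold was 0.66 ± 0.28 (95% interval 0.027 to 1.29, unadjusted limma p of 0.0428, limma adjusted p of 0.9996). It lay between 0.52 and 0.89 with any 1 library left out, and without Control 1 its unadjusted limma p was 0.116. Because the gene is low, the pseudocount moved it, from 0.39 with 5 CPM added to 0.76 with 0.25 CPM added.

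Of the 11 other BMP genes listed, 7 were tested, with a median log2 fold of 0.10 and 0 at an unadjusted limma p under 0.05. The ligand Bmp7 averaged 5.44 ± 0.0770 CPM over the Control libraries and 4.34 ± 0.989 CPM over the Naringin libraries. The receptor Bmpr2 was at 27.5 ± 4.95 and 31.9 ± 8.02 CPM. Id1, a common target of BMP signals, varied little, between 10.8 and 11.5 CPM. Its Naringin values lay just below its Control values, at a log2 fold of -0.04 and an unadjusted limma p of 0.782. Id3, of the same list, had a log2 fold of -0.03 with overlapping groups. The antagonists Nog, Chrd and Fst were below the limit of a mean of 1 CPM and were not tested.

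Among the genes shared by marginal reticular and follicular cells, Bst1 had groups that did not overlap. Bst1 (CD157, BP-3), an ectoenzyme that makes cyclic ADP-ribose and is carried by lymph node stroma and by myeloid cells, was at 28.7, 44.1 and 44.9 CPM in Control and 60.8, 53.0 and 48.4 CPM in Naringin. Every Naringin library lay above every Control library, and the nearest values were 44.9 CPM in Control 3 and 48.4 CPM in Naringin 3. It was the one member of 10 with groups apart, where 3.36% of all genes tested lay wholly higher and 2.29% wholly lower. The log2 fold was 0.47 ± 0.19 (95% interval 0.036 to 0.91, unadjusted limma p of 0.0371, limma adjusted p of 0.9996). Control 1 was the lowest library, and without it the value was 0.27 (unadjusted limma p of 0.132). Relative to Pdgfrb the separation was lost: there were 93.3, 150 and 123 Bst1 reads per 100 Pdgfrb reads in Control and 106, 179 and 223 with naringin. The macrophage and neutrophil markers, cells that also carry Bst1, summed to 272 to 562 CPM in Control and 186 to 777 CPM in Naringin. Their part in the Bst1 difference was not tested.

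Mfge8, a secreted bridge between dying cells and phagocytes that follicular dendritic cells produce, was the most abundant member, at 397, 630 and 773 CPM in Control and 643, 689 and 674 CPM in Naringin. It made up 47.6% to 66.5% of the summed CPM of the 10 genes. The Naringin values were close together, with an SD of 23.8 CPM against 190 CPM in Control, and lay inside the Control range. The log2 fold of 0.21 ± 0.23 (95% interval -0.32 to 0.74) was -0.062 without Control 1 and 0.42 without Control 3.

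Coch, cochlin, an extracellular matrix protein of the inner ear that follicular dendritic cells also secrete, was at 5.12, 6.72 and 15.8 CPM in Control and 26.9, 14.6 and 4.13 CPM in Naringin. Naringin 1 was the highest and Naringin 3 the lowest library. Its log2 fold of 0.50 ± 0.60 had the widest interval of the 10, from -0.89 to 1.89, and was -0.048 without Naringin 1, 1.17 without Naringin 3 and 0.93 without Control 3.

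**Figure D2:**
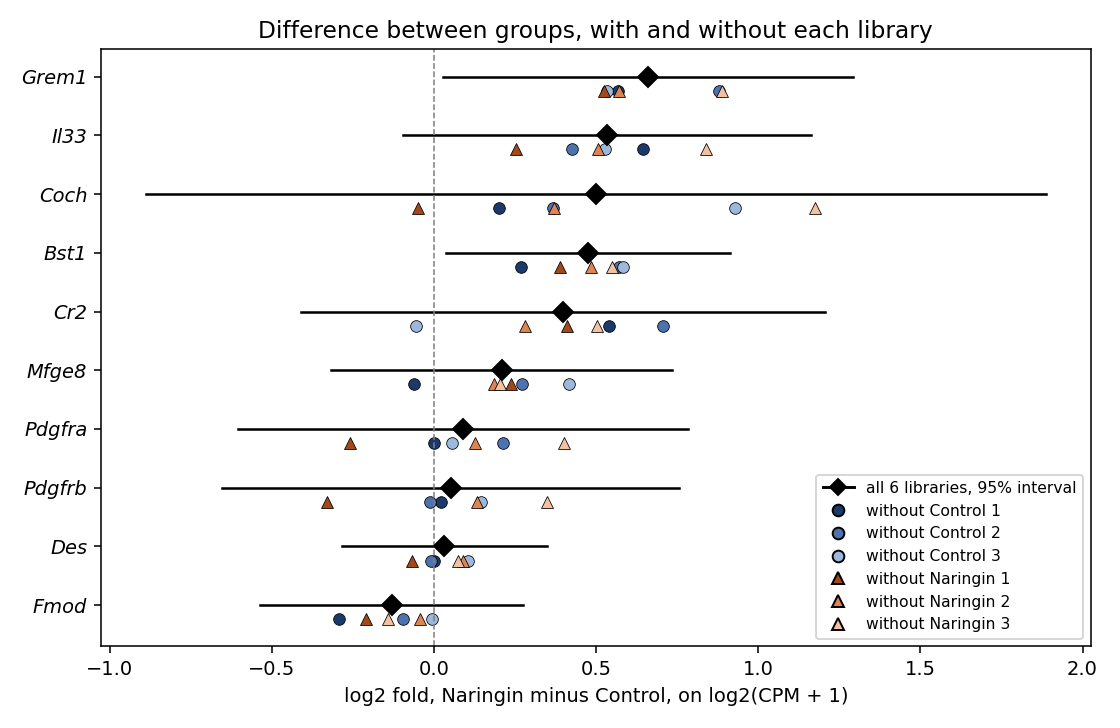
Log2 fold, Naringin minus Control on log2(CPM + 1), of each of the 10 genes (horizontal axis). Black diamonds and lines give limma's estimate and 95% interval from all 6 libraries, and coloured symbols give the estimate without 1 Control (circles) or 1 Naringin (triangles) library. Bst1, Il33 and Grem1 stay above 0 in all 6 omissions, which was fixed in advance for Bst1, whose groups do not overlap. Pdgfra, Pdgfrb, Coch and Des fall below 0 without Naringin 1, and Pdgfrb and Des without Control 2. Mfge8 falls below 0 without Control 1 and Cr2 without Control 3.

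Cr2 encodes complement receptors 2 and 1 (CD21 and CD35) in the mouse and is expressed by B cells as well as by follicular dendritic cells. It was at 174, 219 and 75.7 CPM in Control and 185, 222 and 163 CPM in Naringin, so that Control 3 stood far below the other 5 libraries. The log2 fold was 0.40 ± 0.35 (95% interval -0.41 to 1.21), and it was -0.055 without Control 3. Of the 8 B cell markers, 3 were also lowest in Control 3, while 4 were lowest in Control 1 and Cd79b was highest in Control 3, at 686 CPM. Pax5, the transcription factor of B cell identity, was at 261 CPM there and between 332 and 569 CPM in the others, Bank1 at 154 against 210 to 280 CPM, and Cd22 at 465 against 519 to 611 CPM. Ms4a1, which encodes CD20, was at 377 CPM there and between 363 and 573 CPM in the others. Cd79a, part of the B cell antigen receptor, was at 887 CPM there and between 718 and 963 CPM in the others. The median deviation of the B cell markers from their 6-library means was -0.18 in Control 3 and -0.16 in Control 1. Per 100 reads of Ms4a1, Control 1 and 2 had 48.0 and 49.1 Cr2 reads, Control 3 had 20.1, and the Naringin libraries had 36.6 to 40.4.

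Control 3 also differed by transcript length. Genes with 5 kb or more of exon lay a median of 0.28 below the mean of the other 5 libraries on the log2 scale in Control 3, and genes under 2 kb lay 0.23 above it. Genes of 2 to 5 kb, the class of the 7 shorter members, lay only 0.054 above it. In the other libraries these medians ran from -0.095 to 0.15. Cr2, with 8.11 kb of exon, lay 1.32 below the other libraries, and Pdgfra, with 10.02 kb, lay 0.14 below. Pdgfrb, the other member over 5 kb, lay 0.19 above them with 5.48 kb. Of the 7 shorter members, 4 lay above: Coch (3.00 kb) by 0.73, Mfge8 (4.69 kb) and Fmod (3.31 kb) by 0.38 each, and Des (3.75 kb) by 0.16. Grem1 (4.15 kb) lay 0.70 below, Il33 (2.89 kb) 0.33 below and Bst1 (3.32 kb) 0.023 below. These 7 thus lay on both sides of their class median of 0.054. The part of this length pattern in the Cr2 value was not tested.

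**Figure D3:**
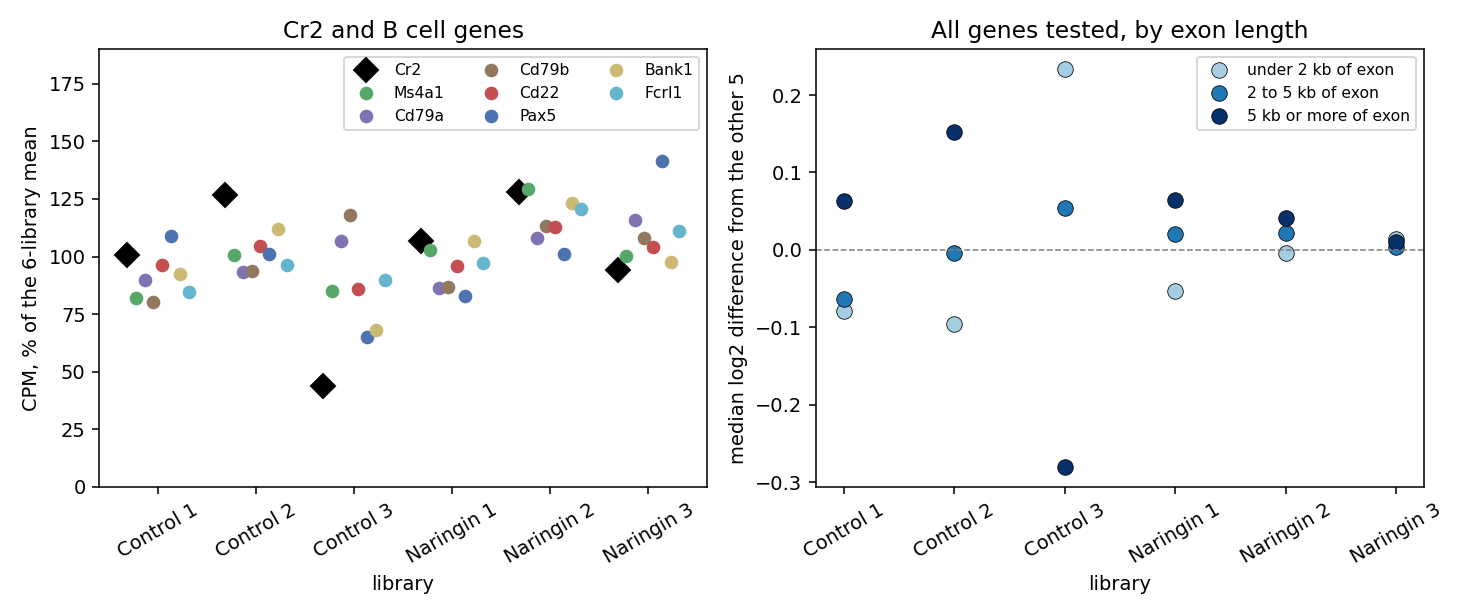
Left: CPM of Cr2 (diamonds), and of 7 B cell genes (circles) as a percentage of each gene's mean over the 6 libraries (vertical axis). Right: for all genes tested with a known exon length, the median log2 difference between a library and the mean of the other 5, in 3 classes of exon length. Cr2 is lowest in Control 3, at 75.7 CPM, the library in which genes of 5 kb or more lie 0.28 below the others.

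The median log2 fold of the 10 genes was 0.30, with 9 of 10 above 0, beside a median of 0.02 and 56.7% above 0 over all genes tested. The members were chosen with earlier results known, so this is a description. The median was 0.095 without Naringin 1, 0.11 without Control 1 and 0.45 without Naringin 3. Naringin 1 was the highest library for 7 of the 10, where 19.4% of all genes tested were highest in it. The median deviation of the members from their 6-library means was -0.24, -0.01 and 0.06 in the Control libraries and 0.51, 0.18 and -0.10 in the Naringin libraries.

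Endothelial and myeloid markers were also high in Naringin 1. Blood and lymphatic endothelial markers had a median deviation of 0.81 in Naringin 1 and -0.65 in Naringin 3, with 7 of 8 highest in Naringin 1. Their summed CPM ran from 472 to 695 in Control and from 480 to 806 with naringin, and Lyve1 and Kdr, with the smallest p, had log2 folds of 0.44 and 0.22. Macrophage and neutrophil markers had 1.22 in Naringin 1 and -0.97 in Naringin 3, with Cxcr2 and Csf3r at log2 folds of 0.48 and 0.37. The defining markers Pecam1 and Cdh5 of endothelium and Adgre1 and Siglec1 of macrophages were present in every library. B cell, adipocyte and skeletal muscle markers were not: their median deviations in Naringin 1 were -0.08, 0.01 and -0.23, and 0 of 8 B cell markers were highest in it. Adipocyte markers, of which 6 of 8 were tested, summed to 15.0 to 61.4 CPM in Control and 6.30 to 22.7 CPM in Naringin, highest in Control 1 and lowest in Naringin 3. Cfd and Car3 had log2 folds of -0.94 and -0.85. Skeletal muscle markers summed to at most 7.73 CPM, with Myh4 at 0 in every library and Mylpf and Tnnt3 at log2 folds of -0.18 and -0.01. B cell markers summed to 3452 to 3809 CPM in Control and 3524 to 4320 CPM in Naringin, with all 8 log2 folds above 0, a median of 0.19, and Ms4a1 and Fcrl1 at 0.31 and 0.28. The part of these components in the differences of the 10 genes was not tested.

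**Figure D4:**
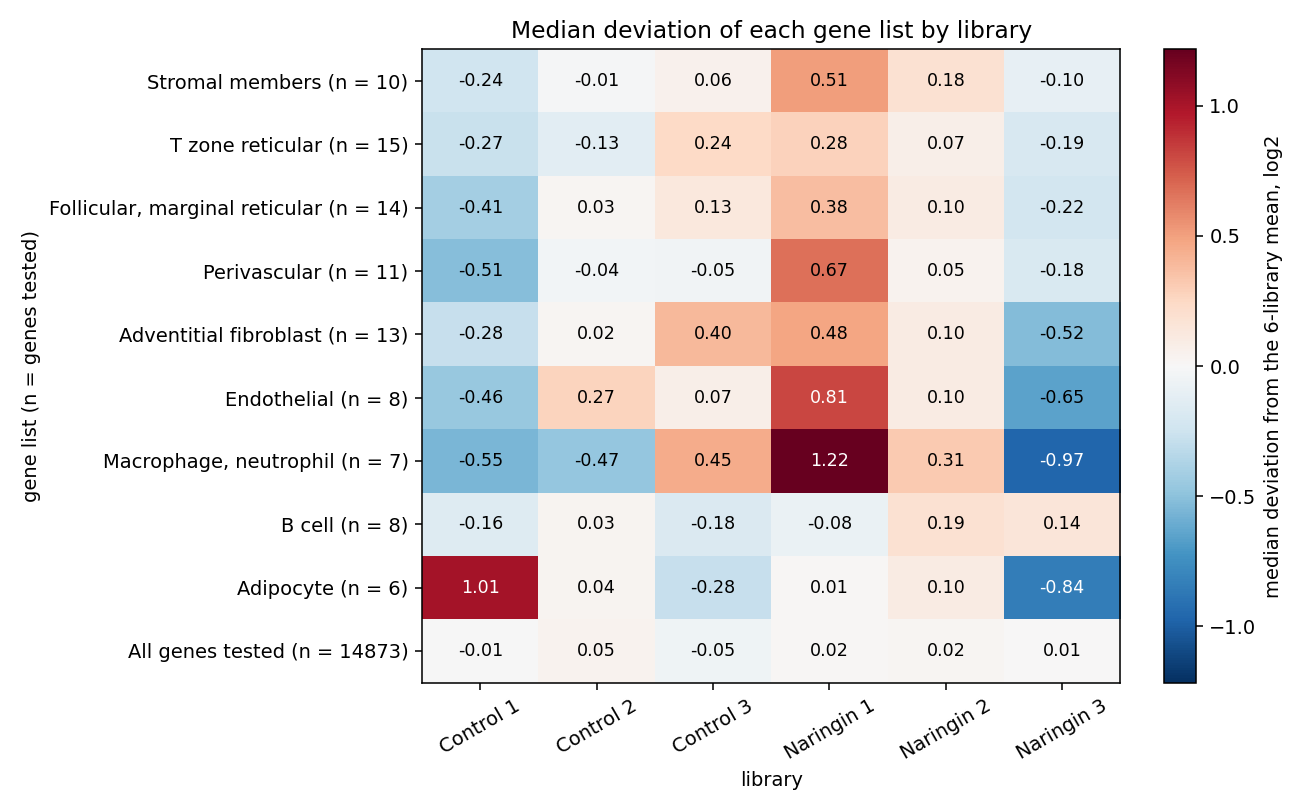
Median deviation (log2, colour and printed number) of the tested genes of 9 lists and of all genes tested from their own 6-library means, by library. The 10 stromal genes are at 0.51 in Naringin 1 and -0.10 in Naringin 3. Endothelial markers are at 0.81 and -0.65, and all genes together stay between -0.05 and 0.05.

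Sequences upstream of the start sites are shown for Grem1, Coch and Il33, which had the 3 largest log2 folds and were highest in Naringin 1, and for Cr2, which was not. RefSeq start sites on GRCm38.p6 were matched by symbol for 8 of the 10 genes, not for Pdgfrb and Bst1. The 250 bases before the start are given 5′ to 3′ on the strand of the gene: Grem1 at chr2:113758649-113758898 (minus strand), Coch at chr12:51593091-51593340 (plus), the upstream and downstream starts of Il33 at chr19:29924863-29925112 and chr19:29945540-29945789 (both plus), and Cr2 at chr1:195176720-195176969 (minus). Capitals mark matches on either strand to the TATA box letters TATAAA, the GC box GGGCGG, the E-box CAGCTG and the AP-1 site TGANTCA.
Grem1: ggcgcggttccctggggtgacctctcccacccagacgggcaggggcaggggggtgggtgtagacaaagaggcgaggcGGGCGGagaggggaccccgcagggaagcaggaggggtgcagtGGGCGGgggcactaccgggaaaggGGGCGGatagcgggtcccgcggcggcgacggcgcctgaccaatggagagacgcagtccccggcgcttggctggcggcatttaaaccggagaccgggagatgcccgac
Coch: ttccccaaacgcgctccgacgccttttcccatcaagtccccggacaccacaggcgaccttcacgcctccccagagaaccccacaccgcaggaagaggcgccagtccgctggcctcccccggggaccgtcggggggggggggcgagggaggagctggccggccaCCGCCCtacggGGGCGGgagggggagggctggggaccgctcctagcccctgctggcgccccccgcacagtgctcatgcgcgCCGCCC
Il33 upstream start: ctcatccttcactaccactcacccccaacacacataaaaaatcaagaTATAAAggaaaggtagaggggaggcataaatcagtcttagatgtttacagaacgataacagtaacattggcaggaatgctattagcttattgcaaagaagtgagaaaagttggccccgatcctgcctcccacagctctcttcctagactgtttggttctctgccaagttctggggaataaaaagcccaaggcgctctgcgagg
Il33 downstream start: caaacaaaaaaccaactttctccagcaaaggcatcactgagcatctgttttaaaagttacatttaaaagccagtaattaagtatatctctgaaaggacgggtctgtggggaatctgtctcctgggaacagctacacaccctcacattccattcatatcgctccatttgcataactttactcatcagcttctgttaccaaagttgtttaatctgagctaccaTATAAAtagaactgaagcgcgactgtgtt
Cr2: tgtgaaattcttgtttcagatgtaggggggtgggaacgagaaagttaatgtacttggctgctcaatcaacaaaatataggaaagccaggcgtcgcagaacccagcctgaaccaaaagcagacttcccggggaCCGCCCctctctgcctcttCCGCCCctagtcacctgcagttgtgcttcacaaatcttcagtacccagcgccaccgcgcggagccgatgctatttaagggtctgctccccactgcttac

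Of the 7 genes that were highest in Naringin 1, 5 had a matched start site (Pdgfra, Des and the 3 shown), and no motif of this search was present before all 5. GGGCGG was present before 3 of them, Des among them, and Pdgfra had no match. TATAAA, found in 12.4% of 32851 such regions of all genes, was present before both Il33 starts, at 203 and 29 bases before them. GGGCGG, in 32.7% of regions, was present at 3 places before Grem1, 3 before Coch and 2 before Cr2, and before neither Il33 start. CAGCTG, in 13.0% of regions, and TGANTCA, in 6.75%, were present in none of the 5 sequences shown, and no matches overlapped. Des, not shown, had 1 CAGCTG. GC content ran from 39.6% at the downstream Il33 start to 74.8% at Coch. A match to these letters is a description of the sequence, not a site shown to be bound.

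Wider lists of stromal genes placed the 10 among their neighbours. Of 15 T zone reticular genes, all tested, 11 had log2 folds above 0, with a median of 0.04 and 0 at an unadjusted limma p under 0.05. The smallest p were those of Thy1, a glycoprotein of T cells and stroma, at -0.23, and of the lymphotoxin receptor Ltbr at 0.33. The chemokines Ccl19 and Ccl21a had -0.16 and -0.16 and podoplanin -0.02, each with overlapping groups. Of 15 follicular and marginal reticular genes, 14 were tested, with 10 above 0 and a median of 0.11. Cxcl13, the chemokine that draws B cells into follicles, was at 137, 197 and 226 CPM in Control and 360, 383 and 255 CPM in Naringin, with no overlap. Its log2 fold of 0.84 had an unadjusted limma p of 0.00539 and a limma adjusted p of 0.9996. Tnfsf11 (RANKL), a marker of marginal reticular cells, was at 13.9 ± 4.43 and 19.6 ± 5.94 CPM with overlap.

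In the perivascular list the median log2 fold was 0.27, with 9 of 11 tested genes above 0 and 9 of 11 highest in Naringin 1. Acta2, smooth muscle actin, was at 30.1, 35.7 and 43.2 CPM in Control and 87.2, 49.7 and 47.1 CPM in Naringin, with no overlap, a log2 fold of 0.70 and an unadjusted limma p of 0.0215 that did not pass adjustment (limma adjusted p = 0.9996). Mcam (CD146), an adhesion molecule of pericytes and endothelium, was also apart, at 12.3 to 14.0 CPM in Control and 15.4 to 17.7 CPM in Naringin. Adventitial and capsular fibroblast genes had a median of 0.07, with 8 of 13 above 0, and Dpp4 and Ly6a, with the smallest p, had 0.22 and 0.30. Of the lymphotoxin and TNF genes that signal to stroma, Lta had a log2 fold of -0.18 and the median over 6 was 0.03. Over these lists 0 genes passed the limma adjusted threshold.

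The genes whose levels over the 6 libraries were most like those of 2 members were picked from 11013 named genes averaging 5 CPM or more, by the highest Pearson r of log2(CPM + 1). For Pdgfrb they were Fzd7, a Wnt receptor, with r = 0.99 (Spearman rho = 0.94), Tbc1d2b with r = 0.99 (rho = 0.83) and Nlgn2 with r = 0.99 (rho = 0.83). Without Naringin 1 and Naringin 3, the libraries farthest from the median of Pdgfrb, the 3 values of r were 0.91, 0.87 and 0.77. For Cr2 they were Wtap, Scyl3 and Ccdc50, each with r = 1.00 to 2 decimals and rho = 1. Without Control 3 and Naringin 2 they were 0.97, 0.98 and 0.96. All 3 were lowest in Control 3, as Cr2 was. These genes were selected for a high r from a large pool, over libraries that share depth and length effects, so no p is given.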

How the data were processed

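RNA was measured in 6 mouse inguinal lymph node samples. Per the labels' protocols, total RNA went into NEBNext Ultra libraries. Per the submitters' processing notes, the tools were edgeR 3.40.0, featureCounts, Subread 1.6.0, STAR 2.7.9a and Trimmomatic 0.39, with the build mm39. The annotation, the strand setting and the treatment of shared reads are not given in these sources. Reads of overlapping or antisense genes therefore cannot be told apart. The deposited values are CPM made by the authors, each column summing to 1000000 with no further scaling. A value is thus a share of its library. Columns are headed 1 to 6 and were assigned by the number that leads each sample title.

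Values were analysed as log2(CPM + 1) for genes averaging 1 CPM or more, with limma 3.58.1 in R 4.3.3 (mean-variance trend, robust moderation, 2-sided, Benjamini-Hochberg over all genes, threshold 0.05). SE and 95% intervals are limma's. Whole reads were recovered from the CPM steps: the tolerance was 0.01 of a read, and 100% of values met it. On these, edgeR 4.0.16 and DESeq2 1.42.0 were run as alternatives. Other pseudocounts, filters, scalings, a replicate block and leaving out each library were also tried. The steps were tested on simulated data. No pair of libraries was alike within sampling noise (chi-square per degree of freedom 7.68 to 61.6). Exon lengths came from GENCODE M21, matched for 93.8% of tested genes and all 10 members.

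The members and all gene lists were chosen with earlier results of these data known. Named genes are the 10 members, the 2 with the smallest p in each of 13 other lists, the anchors Cxcl13, Ccl19, Ccl21a, Pdpn, Ms4a1, Adipoq and Acta1, and the genes most like Pdgfrb and Cr2. Other genes were named after their values were seen, and 1 further anchor is not reported here.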

Additional observations from a re-analysis of the deposited data

How the results depend on the processing

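Of 110 log2 folds of the 10 genes under 11 other settings with all libraries, 108 kept their direction and stayed short of the threshold. The exceptions were 2 values of Des, -0.012 under upper-quartile scaling and -0.0036 under quantile normalization. Of 60 values with 1 library left out, 8 changed direction: Mfge8 at -0.062 without Control 1, Pdgfrb at -0.011 and Des at -0.010 without Control 2, Cr2 at -0.055 without Control 3, and Pdgfra at -0.26, Pdgfrb at -0.33, Coch at -0.048 and Des at -0.067 without Naringin 1. The cause was not tested. With 1 library left out, the values of these genes ran from -0.26 to 0.40 (Pdgfra), -0.33 to 0.35 (Pdgfrb), -0.062 to 0.42 (Mfge8), -0.048 to 1.17 (Coch), -0.055 to 0.71 (Cr2) and -0.067 to 0.11 (Des). The members' median, 0.30, ran from 0.22 to 0.31 under the other settings and from 0.095 to 0.45 with 1 library left out.

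Over all genes, limma called 0, with 145 higher and 68 lower at an unadjusted p under 0.05. edgeR called 0, with 154 and 79. The limma counts were 398 and 993 without Control 3, which turned their balance, 400 and 113 without Naringin 3, and 46 and 26 without Naringin 2. DESeq2 called 3 (Cd209f, Cd209g and Fgf23), and leaving out 1 library gave 0 to 1 calls, the 1 being Cxcr4 without Control 3. These genes are named after their values were seen, and none is a member. A replicate block on the title numbers gave 0 calls, with 116 higher and 41 lower at an unadjusted p under 0.05. The deviations of same-numbered samples from their group means correlated at r = -0.26, -0.02 and -0.27, and not every sample correlated best with its own number. With 3 libraries per group, whose deviations sum to 0, these values cannot show whether the numbers pair samples.

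The count of members at an unadjusted p under 0.05, 2 by limma, was 1 under quantile normalization (Bst1 at 0.0578), without the trend (Bst1 at 0.0504) and with the replicate block (Bst1 at 0.0726), and 3 by DESeq2. It ran from 0 to 4 with 1 library left out.

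The count of members with groups apart was 1 with all libraries and 1 to 3 with 1 left out, a check chosen after seeing the data. Groups that are apart stay apart when a library is left out. Bst1 was therefore bound to be counted each time, and the count could not fall. Bst1 was joined by Fmod (lower) without Control 1, Grem1 without Control 2, Mfge8 without Control 3, and Il33 and Grem1 without Naringin 3. Over all genes tested that share ran from 8.71% to 27.8%. Grem1, with 41 to 119 reads, and Coch, with 59 to 402, rest on the fewest reads.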

Other observations

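Some matrix genes that neighbour Fmod in function varied far more between libraries than Fmod itself. Lum, lumican, a small proteoglycan of the same family as fibromodulin, was at 6.12, 4.77 and 44.5 CPM in Control and 36.3, 24.97 and 1.68 CPM in Naringin. Dcn, decorin, was at 234, 287 and 555 CPM in Control and 691, 355 and 137 CPM in Naringin. Fmod stayed between 24.6 and 37.1 CPM in the same libraries. From lowest to highest, Lum varied by 26.5 times and Dcn by 5.04 times. The matrix genes Bgn and Col14a1 varied less, by 2.37 and 1.98 times, against 1.51 times for Fmod. Lum and Dcn were high in Control 3 and Naringin 1 and lowest in Naringin 3, and in both the groups overlapped. The neutrophil genes S100a8 and S100a9 also had their 2 highest values in Control 3 and Naringin 1, with S100a8 at 79.9 and 66.0 CPM there and between 8.67 and 32.8 CPM elsewhere. All genes of this section other than Fmod were chosen for it after their values were seen.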
